A study of Mus musculus with 26 samples.

Results

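Calcium-binding S100 proteins, sugar-binding galectins and a pore-forming gasdermin were followed across 26 arrays of mouse pancreatic islets. The 7 genes were S100a4, S100a6, S100a10 and S100a11, the galectins Lgals1 and Lgals3, and the gasdermin Gsdma. They were selected on measured values of these arrays, with earlier results in view: the high levels of Lgals3 and Gsdma in cultured islets, and the low level of S100a4 at higher glucose. Culture against fresh islets and the steps between glucose concentrations therefore chose the genes, and those differences are given below as values without a test. A gene was read from the brightest probe set annotated to it alone. Of the 7 genes, 6 had such a probe set, out of 18194 genes with one on the array, and all 6 passed the filter on dim signals that left 12581 genes for testing. S100a11 lies only on a probe set shared with S100a11-ps and Gm12854, so it has no value here.

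S100 proteins are small EF-hand proteins that change shape when they bind calcium and then attach to partners such as annexins and myosin. S100a4 binds non-muscle myosin and is known from fibroblasts and motile leukocytes, S100a6 (calcyclin) binds annexins and Cacybp, and S100a10 is the light chain that joins annexin A2 at the plasma membrane. Galectins bind beta-galactosides on glycoproteins: Lgals1 forms dimers and is abundant in mesenchymal cells, and Lgals3 is abundant in macrophages and gathers on damaged lysosomes. Gsdma encodes gasdermin A, a protein known from skin and upper gut epithelium whose freed amino-terminal part forms membrane pores.

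The islets came from wild-type male C57BL/6J mice, 5 weeks (young) or 56 weeks (old) of age, and all groups were of this genotype. Fresh islets were taken at both ages. The cultured islets first had 1 recovery day at 11 mM glucose, followed by 2 days at 3, 5.5 or 11 mM, and in young islets also at 16 mM. In a separate time course, young islets spent a night at 3 mM (0 h) and were then moved to 11 mM for 1 h or 4 h. Young islets at 11 mM had 4 arrays and the other 11 groups 2 each. Replicates are labelled biological, with no word on pooling of mice, and the p-values thus reflect only the spread between these samples. Islets left at 3 mM alongside the 1 h and 4 h samples were not analysed here.

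Levels are the signals as deposited, whose mean after trimming 2% at each end was 150 on every array; the median probe set of an array lay at 28 to 42. Gapdh control probe sets at the 5' and 3' ends, whose ratio reflects RNA length, divided the arrays into 12 at 1.03 to 1.48 (set A) and 14 at 0.1 to 0.277 (set B). Set A held every old sample, the young fresh pair and replicates 3 and 4 from young 11 mM culture. Set B held the other young cultured islets and the time course. Old and young islets at 3 and 5.5 mM thus lay in different sets, and age cannot be told apart from array set there. Young islets at 11 mM lay in both sets: Gsdma was 528 ± 107 in set B and 184.5 ± 41.7 in set A (SD, n = 2 each), while the other 5 genes differed between the sets by -0.01 to 0.50 on the log2 scale.

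On the genome, S100a4 and S100a6 stand with S100a13 and S100a1 in one run of S100 genes on mouse chromosome 3. S100a11 and S100a10 are neighbours elsewhere on that chromosome. Gsdma is on chromosome 11, Lgals3 on 14 and Lgals1 on 15. RefSeq promoter sequences (GRCm38.p6, 250 bases before to 50 after the start site) matched 4 of the 7 genes. Those of the S100a4 and S100a6 pair, whose levels moved together over groups, and of Lgals3, whose levels did not follow them, are shown. Capitals mark matches on either strand to the AP-1 word TGANTCA, the TATA box TATAAA or the E-box CACGTG. These words do not overlap one another here.
S100a4, chr3:90603520-90603819, plus strand: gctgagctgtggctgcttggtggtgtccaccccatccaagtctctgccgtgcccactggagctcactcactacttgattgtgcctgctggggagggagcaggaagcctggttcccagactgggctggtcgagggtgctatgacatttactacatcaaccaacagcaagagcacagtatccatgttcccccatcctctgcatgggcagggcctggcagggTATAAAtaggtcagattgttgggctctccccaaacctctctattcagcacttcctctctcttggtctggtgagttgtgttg
S100a6, chr3:90612644-90612943, plus strand: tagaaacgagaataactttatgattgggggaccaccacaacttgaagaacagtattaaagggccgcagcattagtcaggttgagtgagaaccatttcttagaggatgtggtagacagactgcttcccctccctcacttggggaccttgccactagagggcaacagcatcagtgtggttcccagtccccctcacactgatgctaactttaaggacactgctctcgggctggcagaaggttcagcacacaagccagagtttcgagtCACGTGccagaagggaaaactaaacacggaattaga
Lgals3, chr14:47373610-47373909, plus strand: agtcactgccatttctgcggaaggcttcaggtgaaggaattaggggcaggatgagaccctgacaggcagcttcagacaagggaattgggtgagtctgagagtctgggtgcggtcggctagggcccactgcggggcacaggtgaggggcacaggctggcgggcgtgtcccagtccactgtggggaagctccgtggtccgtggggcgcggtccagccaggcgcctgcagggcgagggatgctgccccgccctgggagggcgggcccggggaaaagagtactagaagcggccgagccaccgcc
The S100a4 promoter held a TATAAA whose first base lies at -31 from the start site, a word found in 13.6% of 32851 promoters of this length. The S100a6 window held a CACGTG whose first base is base 15 after the start, a word found in 7.15% of promoters. The Lgals3 window held none of the 3 words, of which TGANTCA occurs in 7.81% of promoters. The S100a11 window, not shown, held 2 matches to TGANTCA, with first bases at -136 and -38, and a CACGTG at -223. A further word, the antioxidant response element TGANNNNGC, is not marked and is found in 41.3% of promoters. It had 2 matches in the S100a4 window and 1 in that of Lgals3. These matches describe letters in a window and are not measured binding sites.

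S100a4 was higher at 3 mM glucose than at 5.5, 11 or 16 mM, at both ages. In young islets its signal was 225 and 167 at 3 mM, 32 and 32 at 5.5 mM, 42 and 80 at 16 mM. At 11 mM it was 41 and 55 on the set B arrays and 68 and 79 on the set A arrays. In old islets it was 157 and 188 at 3 mM, 52 and 66 at 5.5 mM, and 48 and 69 at 11 mM. The 4 arrays at 3 mM were all above the 12 arrays of 2-day culture at higher glucose, and at 5.5 mM the young islets sat near the array median. The differences from 3 mM on the log2(signal + 16) scale were -2.13 at 5.5 mM, -1.72 at 11 mM and -1.49 at 16 mM in young islets, and -1.33 at 5.5 mM and -1.35 at 11 mM in old islets (SE 0.46 for each). The 3 young differences share the 3 mM arrays, as do the 2 old ones. Their size depends on the 16 added before the log2. At 5.5 mM in young islets the difference was -2.56 with 1 added and -1.43 with 64 added. Young 16 mM and 11 mM overlapped.

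S100a4 was higher than in fresh islets at 3 mM only, among the 4 comparisons of culture with fresh islets within an array set, and lower in the other 3. Fresh islets gave 161 and 146 in the young and 79 and 102 in the old. The young fresh arrays lay below those at 3 mM, which are of the other array set, and above the 2-day cultures at higher glucose. Within set A, young 11 mM minus fresh was -0.92 (SE 0.46). In old islets, culture minus fresh was 0.83 at 3 mM, -0.50 at 5.5 mM and -0.52 at 11 mM. Ranked by mean signal over the 12 groups, young 3 mM (196 ± 41.0) and old 3 mM (172.5 ± 21.9) stood at the top and young 5.5 mM (32, both arrays equal) at the bottom. Each neighbouring pair in that order overlapped except the lowest pair, old 11 mM (58.5 ± 14.8) and young 5.5 mM.

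S100a6 was also higher at 3 mM than at higher glucose, with smaller differences than S100a4. Its signal in young islets was 189 and 149 at 3 mM, 85 and 104 at 5.5 mM, and 99 and 83 at 16 mM. At 11 mM it was 93 and 97 in set B and 149 and 134 in set A. Old islets gave 184 and 224 at 3 mM, 70 and 124 at 5.5 mM, and 107 and 160 at 11 mM. In each of the 5 comparisons with 3 mM the arrays of the same set did not overlap. The log2 differences were -0.74, -0.73 and -0.79 at 5.5, 11 and 16 mM in young islets, and -0.998 and -0.57 at 5.5 and 11 mM in old islets (SE 0.27 for each). Fresh S100a6 was 211 and 130 in young and 123 and 137 in old islets, levels that overlapped those of cultured islets.

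S100a4 and S100a6 were the members apart from 3 mM in young islets: 2 of 6 genes did not overlap at 5.5 mM, 2 of 6 at 11 mM and 2 of 6 at 16 mM. The shares among all genes were 48.6%, 62.1% and 60.4%. In old islets 3 of 6 genes were apart at 5.5 mM (52.4% of all genes) and 3 of 6 at 11 mM (60% of all genes), the additional gene being S100a10, which was higher than at 3 mM. Between 11 and 16 mM in young islets 1 of 6 was apart, against 33.1% of all genes. That gene was Lgals1, lower at 16 mM (417 and 401) than on the set B arrays at 11 mM (425 and 548). These counts rest on the differences that chose the genes, and on 1 probe set per gene. On the other Gsdma probe set, young islets gave 131 and 223 at 3 mM and 233 and 275 at 5.5 mM. It gave 260 and 351 at 11 mM in set B and 284 and 411 at 16 mM, all above the 3 mM arrays. The Gsdma probe sets thus disagree on glucose in young islets.

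S100a10 was lower, not higher, after 2 days in culture than in fresh islets of the same array set. Its signal was 893 and 856 in old fresh islets and 845 and 371 in young fresh islets. In 2-day culture the 16 arrays ran from 180 to 386. Old cultured islets gave 201 and 271 at 3 mM, 275 and 330 at 5.5 mM, and 333 and 386 at 11 mM, all below old fresh islets. The log2 differences from old fresh islets were -1.83, -1.49 and -1.25 (SE 0.43 for each). In young islets the set A arrays at 11 mM (366 and 265) were below the fresh pair by 0.82 on the log2 scale (SE 0.43), the lower fresh array standing just above the higher cultured one. The 6 time-course arrays gave 310 to 981 and overlapped the 4 fresh arrays, at 371 to 893. The other S100a10 probe sets differed from it there: one gave 304 to 598 in fresh and 59 to 354 in cultured islets, and the other 63 to 140 in fresh and 9 to 38 in cultured islets, the time course included. The probe sets thus disagree on the time-course islets.

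**Figure D1:**
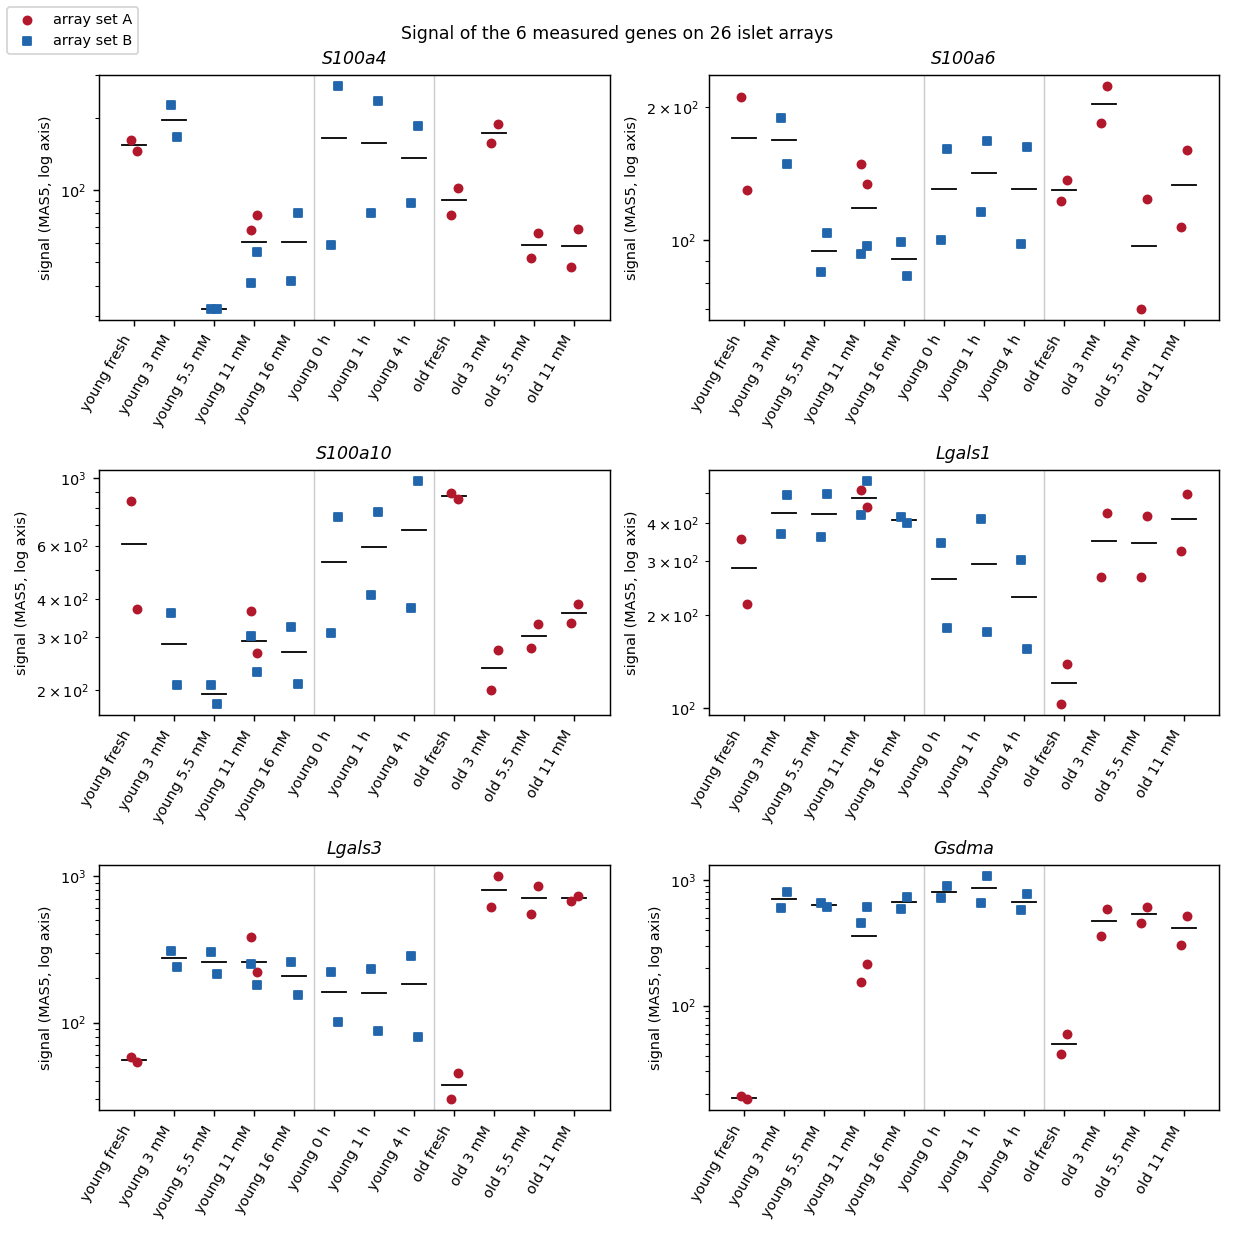
Signal (log axis) of the 6 genes on each array, by group; red circles are array set A, blue squares set B, and bars are group means. S100a4 and S100a6 are high in 2-day culture at 3 mM, S100a10 is high in fresh islets and in replicate 2 of the time course, and Lgals3 and Gsdma are low in fresh islets.

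Lgals1 was higher after 2 days in culture than in fresh islets of the same array set, but not in the time course. Fresh islets gave 354 and 218 in the young and 103 and 139 in the old. Old cultured islets gave 267 and 430 at 3 mM, 267 and 421 at 5.5 mM, and 325 and 497 at 11 mM. Young islets at 11 mM in set A gave 511 and 450. Both ages were apart from their fresh pair, by 0.75 in young islets at 11 mM and by 1.39, 1.37 and 1.62 in old islets at 3, 5.5 and 11 mM (log2, SE 0.37 for each). Across glucose the young 2-day arrays of set B all lay between 360 and 548. The 6 time-course arrays gave 156 to 411, with group means of 229.5 to 294 against 286 in young fresh islets, and overlapped the young fresh pair. The other Lgals1 probe set gave 76 and 78 in old fresh and 138 to 270 in old cultured islets, and 226 and 128 in young fresh against 317 and 273 in young islets at 11 mM in set A.

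Lgals3 was higher in cultured than in fresh islets, with larger log2 differences in old islets than the other 5 genes. Old fresh islets gave 30 and 45, and old cultured islets gave 612 and 997 at 3 mM, 554 and 853 at 5.5 mM, and 671 and 734 at 11 mM. Young fresh islets gave 58 and 54, and the set A arrays at 11 mM gave 382 and 222. The 4 fresh arrays, at 30 to 58, were all below the 22 cultured arrays, at 80 to 997. The log2 differences from fresh were 3.91, 3.73 and 3.76 in old islets at 3, 5.5 and 11 mM and 2.10 in young islets at 11 mM (SE 0.46 for each). Young set B arrays stayed within 155 to 309 at all 4 glucose concentrations. In the order of group means, the 3 old cultured groups (702.5 to 804.5) overlapped one another and stood apart from young 3 mM (275 ± 48.1) below them.

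Gsdma was below the array median in fresh young islets, at 19 and 18, and was 41 and 59 in fresh old islets. Old cultured islets gave 361 and 584 at 3 mM, 454 and 609 at 5.5 mM, and 302 and 521 at 11 mM. Young set A arrays at 11 mM gave 155 and 214, and the young 2-day arrays of set B gave 452 to 799. The 22 cultured arrays ran from 155 to 1072, all above the 4 fresh arrays. The log2 differences from fresh were 2.86, 3.05 and 2.66 in old islets at 3, 5.5 and 11 mM and 2.52 in young islets at 11 mM (SE 0.27 for each). On the other Gsdma probe set the 4 fresh arrays gave 15 to 30 and the 22 cultured arrays 60 to 411.

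Of the 6 genes, 5 did not overlap between young islets at 11 mM and young fresh islets, 3 of them higher in culture, against 46.2% of all genes. In old islets the counts were 6 of 6 at 3 mM (69.7% of all genes), 5 of 6 at 5.5 mM (61.9%) and 5 of 6 at 11 mM (47.7%). Lgals1, Lgals3 and Gsdma were higher in all 4 comparisons, and S100a10 was lower in all 4. The 3 old comparisons share the old fresh arrays. The genes were chosen on such culture differences, so these counts are no test against the shares of all genes.

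**Figure D2:**
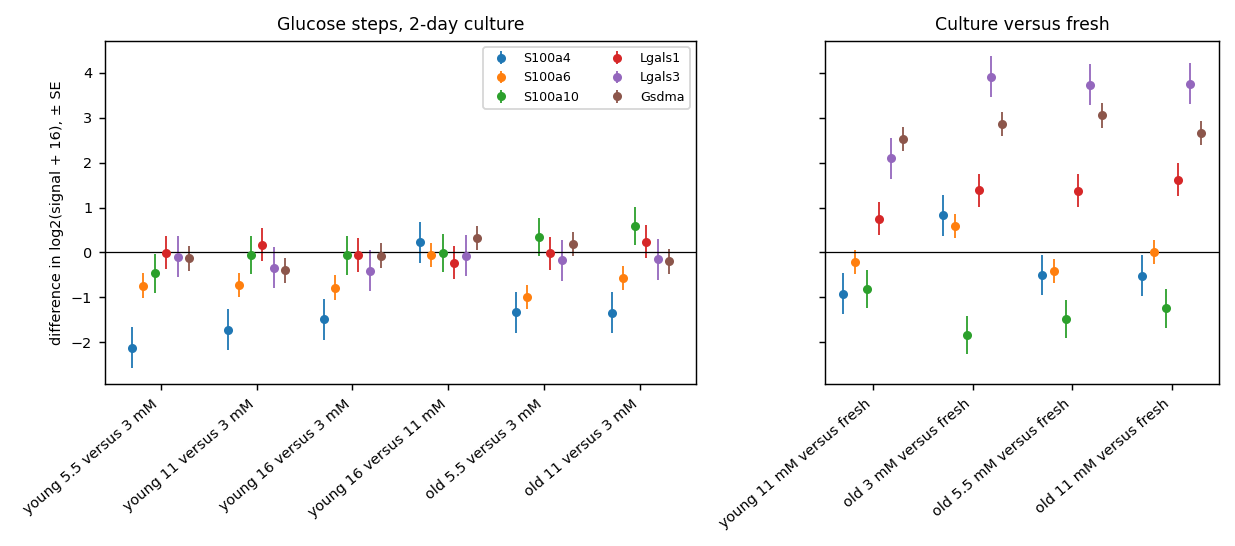
Differences in log2(signal + 16) of the 6 genes (points) with the standard error of the fit (bars), for 6 glucose steps and 4 comparisons of culture with fresh islets. S100a4 and S100a6 are below 0 in the 5 comparisons with 3 mM, and Lgals3 and Gsdma are above 2 in the 4 comparisons with fresh islets.

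Whole islets hold several cell types, and fewer cells of a type cannot be told apart from less RNA per cell. Of the 10 macrophage markers listed, 9 passed the filter; their summed signal was 1490 to 1720 in young fresh and 1749 to 2111 in old fresh islets, and 2405 to 3147 in the 6 old cultured arrays. In young islets it was 1632 to 2292 at 11 mM in set A, 923 to 1462 in 2-day culture in set B and 545 to 870 in the time course. Between young islets at 11 mM and fresh islets of set A, 2 of the 9 markers were higher and 2 lower without overlap, and between old islets at 11 mM and fresh islets 7 were higher and 0 lower. The part of macrophages in the Lgals3 and Gsdma levels was not tested. None of the 9 markers was at 0 on any array. Single markers differed from one another. Cd68, a lysosomal protein of macrophages, was 29 to 47 in fresh and 44 to 201 in cultured islets of both array sets. C1qa was 501 to 629 in young and 704 to 953 in old fresh islets. In set A culture it was 530 to 774 in young and 367 to 1180 in old islets. In set B it was 136 to 536 in young 2-day culture and 159 to 290 in the time course. The 9 measured fibroblast and stellate cell markers summed to 1531 to 1636 in old fresh and 1771 to 3008 in old cultured islets. In young islets their sum was 3923 to 5790 when fresh, 5816 to 6556 at 11 mM in set A and 1807 to 2415 in the time course. At 11 mM 5 were higher than fresh and 3 lower without overlap in young islets, and 5 and 1 in old. Their part in the Lgals1 culture difference was not tested. The 10 endothelial markers summed to 3162 to 3584 in fresh and 425 to 917 in cultured islets, and 6 acinar enzyme genes to 5601 to 27639 in fresh and 141 to 5220 in cultured islets; their part in the S100a10 difference was not tested. In 2-day culture, 7 duct markers summed to 7014 to 7616 on the 4 arrays at 3 mM and 5288 to 6971 on the 12 above it. This duct sum was carried by keratins and Epcam. The sum of 9 beta cell markers was 18562 to 22869 at 3 mM and 24773 to 46968 above it. The part of these 2 lists in the S100a4 and S100a6 levels was not tested.

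**Figure D3:**
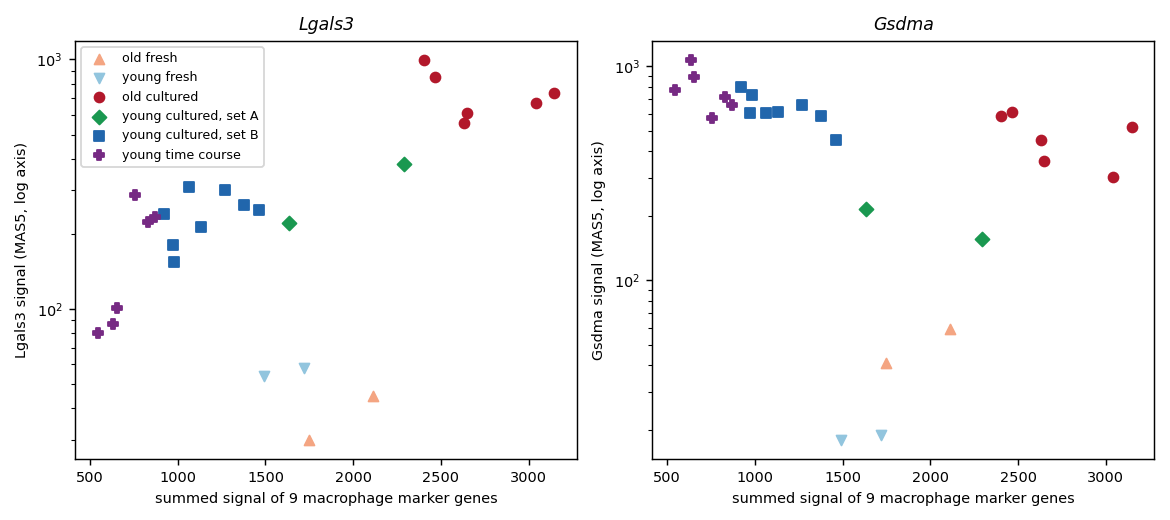
Lgals3 and Gsdma signal (log axes) on each of the 26 arrays against the summed signal of 9 macrophage marker genes. The sums run from 1490 to 2111 in fresh islets, from 2405 to 3147 in old cultured islets and from 545 to 870 in the time course, which lies in the other array set from the fresh islets.

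The genes with the likest patterns over the 12 group means were taken with the array set removed, as a description across groups that share arrays of 2 sets. S100a13, a further S100 gene of the same chromosome 3 run, came first for S100a4 (r = 0.94, n = 12 groups) and was also among the first 3 for S100a6 (r = 0.87). S100a13 was 211 to 280 on the 4 arrays at 3 mM and 94 to 200 on the 12 arrays of 2-day culture above 3 mM. Beside it for S100a4 stood the tubulin gene Tubb5 (0.92) and the focal adhesion gene Zyx (0.88), and for S100a6 the zinc finger gene Zfp710 (0.88) and Tiparp (0.87), an ADP-ribosyltransferase gene. For Lgals3 they were Acp5 (0.99), which encodes a lysosomal acid phosphatase of macrophages and osteoclasts, Lipa (0.96), the lysosomal acid lipase, and Id2 (0.96), an inhibitor of DNA-binding helix-loop-helix factors. For Gsdma they were Cd68 (0.94), Acp5 (0.93) and Lgmn (0.93), a lysosomal protease. Within the 6 genes, r was 0.91 for S100a4 with S100a6, 0.90 for Lgals3 with Gsdma and -0.85 for S100a10 with Lgals1. All these r depend on the set term, which only the 4 young 11 mM arrays determine (set A minus set B was -1.44 for Gsdma). By mean signal, the time-course groups ranked 1, 2 and 4 of 12 for Gsdma and 8 to 10 for Lgals3. Lipa signal was 239 to 275 in young 2-day culture of set B and 170 to 227 in old culture. Lgals3 there was 155 to 309 and 554 to 997.

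The time course asks whether the genes respond within hours when islets go from 3 to 11 mM. None of the 6 passed the test at 1 h against 0 h, at 4 h against 0 h or at 4 h against 1 h (limma, 0 of 6 also at an unadjusted p under 0.05). The shares of all genes called were 0.262%, 11.4% and 3.09%. S100a4 was 59 and 272 at 0 h, 80 and 234 at 1 h, and 88 and 184 at 4 h in replicates 1 and 2. The replicate pair spread far more than the times, and all 3 times overlapped, as they did for all 6 genes, while 32.4%, 51.7% and 42% of all genes were apart in the 3 comparisons. In the main fit, which does not pair the replicates, the difference at 4 h was -0.03 (SE 0.46, adjusted p = 0.984 by limma), with a 95% interval of -0.98 to 0.93. It was 0.47 in replicate 1 and -0.53 in replicate 2. Within replicates 1 and 2, the 4 h differences of Lgals3 also had opposite signs (0.34 and -0.29) and those of S100a6 were -0.025 and 0.016. Those of S100a10 were 0.25 and 0.39, of Lgals1 -0.17 and -0.20, and of Gsdma -0.31 and -0.20, each with 1 sign in both replicates; the fit with replicate number as a block called none of the 6.

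S100a6 was 100 and 161 at 0 h, 116 and 168 at 1 h, and 98 and 163 at 4 h, with a 4 h difference of -0.0044 and an interval of -0.57 to 0.56. S100a10 was 310 and 746 at 0 h, 413 and 776 at 1 h, and 373 and 981 at 4 h, a difference of 0.32 at 4 h with an interval of -0.57 to 1.21. The replicate gap was again wider than any step in time. Lgals1 was 343 and 182 at 0 h, 411 and 177 at 1 h, and 303 and 156 at 4 h, a 4 h difference of -0.19 with an interval of -0.96 to 0.58. Lgals3 was 223 and 101 at 0 h, 233 and 87 at 1 h, and 286 and 80 at 4 h, a 4 h difference of 0.03 with an interval of -0.93 to 0.98. Gsdma was already high at 0 h, at 714 and 888, with 656 and 1072 at 1 h and 571 and 771 at 4 h; its 4 h difference was -0.26 with an interval of -0.83 to 0.32. On its other probe set Gsdma was 114 and 167 at 0 h and 203 and 285 at 4 h, a difference in the opposite direction of 0.74 (limma adjusted p = 0.204).

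Replicates 1 and 2 of the time course differed in the same direction at all 3 times. Replicate 2 was higher for S100a4 by 1.42 on the log2 scale, for S100a10 by 1.16, for S100a6 by 0.58 and for Gsdma by 0.48. It was lower for Lgals3, by -1.32, and for Lgals1, by -0.97. Beside this, the summed signal of 7 duct markers was 9941 to 10851 in replicate 2 and 7425 to 7998 in replicate 1. This sum was carried by keratins 7, 8 and 18 and by Epcam. The other duct markers, Krt19, Muc1 and Tff2, had medians of 21, 7.5 and 11.5 over the arrays, below the lowest array median of 28. The sum is therefore no measure of duct cells alone. The macrophage sum was 545 to 651 in replicate 2 and 754 to 870 in replicate 1. The sum of 6 acinar enzyme genes was 681, 214 and 664 in replicate 2 and 5220, 3340 and 1400 in replicate 1 at 0, 1 and 4 h. None of the measured markers of these 3 lists was at 0 on any array, but Krt19 and Cpa1 fell to 1. Other lists were also lower in replicate 2 than in replicate 1. The beta cell sum was 15493 to 17723 against 22201 to 23766, and the other endocrine sum 24073 to 27254 against 29955 to 33084. The endothelial sum was 548 to 728 against 819 to 917, and that of neutrophils and lymphocytes 38 to 69 against 74 to 113. Fibroblast and Schwann cell sums overlapped between replicates. The part of any of these lists in the gap between replicates was not tested.

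**Figure D4:**
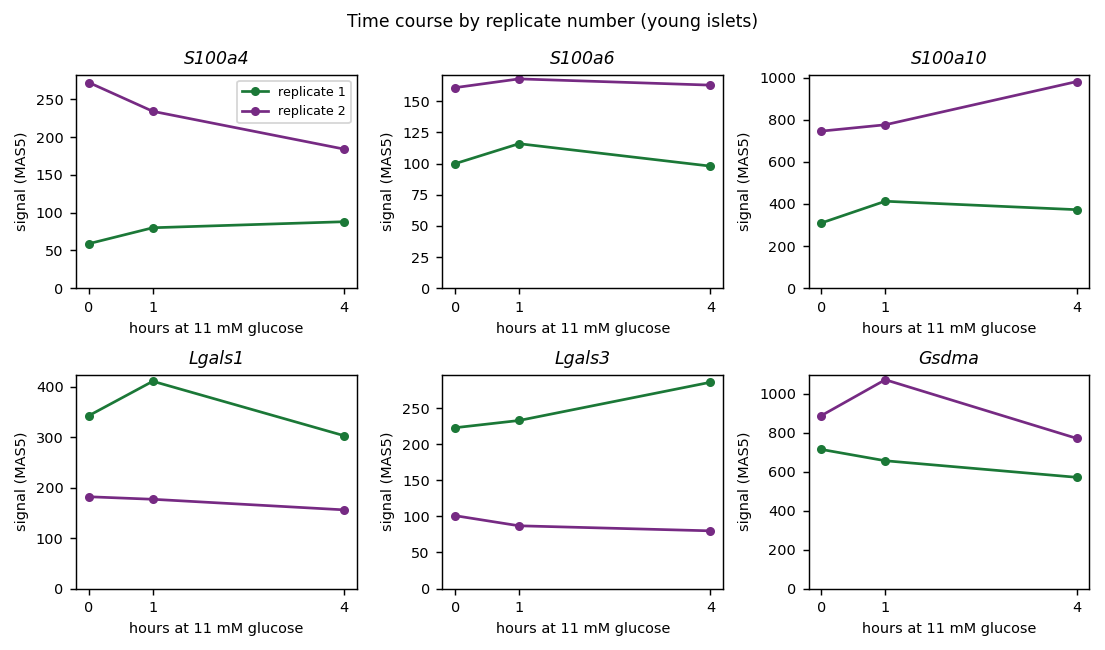
Signal of the 6 genes at 0, 1 and 4 h at 11 mM glucose in young islets; lines join the samples of replicate 1 (green) and replicate 2 (purple). The 2 lines of each gene stay apart on the same side at all 3 times, and no gene is apart between times.

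Among fresh islets, Gsdma was higher in old than in young mice and the other genes did not pass the test. Gsdma was 50 ± 12.7 in old and 18.5 ± 0.707 in young fresh islets (SD, n = 2 each), a difference of 0.92 (SE 0.27, adjusted p = 0.0390 by limma over 12581 genes), and higher in 2 of 2 old arrays. The young arrays lay at 0.452 and 0.429 of the array median, so the size depends on the offset: over 14 alternatives it ran from 0.46 to 1.36, and 5 of the 14 passed. Of the 6 genes, 1 passed, against 9.45% of all genes, and 5 of 6 did not overlap between ages, against 55.2%. Leaving out any one of the 4 fresh arrays ended the Gsdma call (adjusted p 0.0766 to 0.238). Its other probe set gave 27 and 25 in old and 15 and 30 in young fresh islets, which overlap (difference 0.15, limma adjusted p = 0.841).

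Lgals1 was lower in old fresh islets, at 121 ± 25.5 against 286 ± 96.2, a difference of -1.12 (SE 0.37) that missed the threshold (limma adjusted p = 0.0612, 0.00357 to 0.345 over 14 alternatives). Its other probe set gave -1.01 (limma adjusted p = 0.0701). Beside this, all 9 measured fibroblast and stellate cell markers were lower in old fresh islets without overlap, and 7 of them passed the test, against 55.2% and 9.45% of all genes in either direction. Their summed signal was 1531 to 1636 in old and 3923 to 5790 in young fresh islets, and none of the 9 was at 0. At 11 mM, 8 of the 9 were lower in old islets without overlap and 6 passed, against 57.2% and 15.6% of all genes in either direction. Lgals1 differed there by -0.24 (limma adjusted p = 0.707) and overlapped between ages. The part of these markers in the Lgals1 level was not tested. In fresh islets the differences of the remaining genes were -0.68 for S100a4 (95% interval -1.63 to 0.27), -0.32 for S100a6 (-0.89 to 0.25), 0.63 for S100a10 (-0.26 to 1.52) and -0.44 for Lgals3 (-1.40 to 0.51).

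At 11 mM, Gsdma was again higher in old islets when arrays of set A were compared. It was 411.5 ± 155 in old and 184.5 ± 41.7 in young islets (SD, n = 2 each), a difference of 1.06 (SE 0.27, adjusted p = 0.0127 by limma). The young arrays of set B, at 452 and 604, overlapped the old pair of 302 and 521, and with no term for the array set the difference was 0.34 (limma adjusted p = 0.635). Without replicate 2 of the old islets the adjusted p was 0.214, and without replicate 3 of the young islets it was 0.130. On the other probe set the old arrays gave 112 and 200 and the young set A arrays 95 and 132, which overlap (difference 0.38, limma adjusted p = 0.512). Of the 6 genes, 1 passed, against 15.6% of all genes, and 2 of 6 were apart, against 57.2%.

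Lgals3 at 11 mM was 702.5 ± 44.5 in old and 302 ± 113 in young islets of set A. Its difference of 1.22 (SE 0.46) missed the threshold (limma adjusted p = 0.0766, 0.000918 to 0.392 over 16 alternatives), although both old arrays lay above all 4 young arrays. Beside these 2 genes, 3 of 9 macrophage markers passed as higher in old islets at 11 mM (15.6% of all genes passed in either direction): Cd68 by 1.06, C1qa by 0.84 and Cd14 by 0.83 (limma adjusted p 0.0145, 0.0212 and 0.0289). Each of the 3 lost its call without old replicate 2; Cd14 also lost it without young replicate 3, Cd68 without young replicate 4, and C1qa without old replicate 1 or young replicate 4. Their part in the levels of Lgals3 and Gsdma was not tested. The remaining differences were -0.28 for S100a4 (95% interval -1.23 to 0.68), -0.10 for S100a6 (-0.66 to 0.47), 0.19 for S100a10 (-0.70 to 1.08) and -0.24 for Lgals1 (-1.01 to 0.52).

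Other genes of these families were counted in the 5 tested comparisons, in which 0.262%, 11.4% and 3.09% of all genes were called in the time course, 9.45% by age in fresh islets and 15.6% by age at 11 mM. Of 15 further S100 and related genes, 4 passed the filter. S100a1, a calcium sensor of heart and muscle, was higher in old islets, by 0.90 in fresh islets (363 against 187 on average, limma adjusted p = 0.00279) and by 1.37 at 11 mM (483.5 against 175.5, limma adjusted p = 3.31e-05). S100pbp, named for binding an S100 protein, was higher in old islets by 0.70 and 0.62 and rose by 0.38 after 4 h (limma adjusted p = 0.00122, 0.00161 and 0.0472). S100a13 and S100a16 passed in none of the 5 comparisons. With no array set term the age calls of S100a1 and S100pbp were lost. In fresh islets their differences stayed at 0.90 and 0.70 (limma adjusted p = 0.315 and 0.176), and at 11 mM they were 0.51 and 0.15 (0.437 and 0.737). S100a1 in fresh islets also lost its call without young replicate 2, and S100pbp at 4 h without replicate 2 at 0 h or either 4 h array. The S100pbp call at 4 h was also lost with no array set term, quantile normalization, no filter, no intensity trend or the time-course arrays alone.

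Of 18 annexins and S100 partners, 14 were measured. Ager, the receptor RAGE that binds S100 proteins, was at 10 and 7 at 0 h, 129 and 57 at 1 h, and 142 and 80 at 4 h. It rose by 2.07 at 1 h and by 2.33 at 4 h (SE 0.40, limma adjusted p = 0.0285 and 0.000752). At 0 h it lay at 0.312 and 0.241 of the array median, so the size depends on the offset: over the alternatives it ran from 1.08 to 3.21 at 1 h and from 1.25 to 3.52 at 4 h. On the arrays outside the time course it was at 2 to 30, below the array median on each. The 4 h call held in 13 of 13 alternatives and the 1 h call in 5 of 13, and it was lost without either 0 h array or without replicate 1 at 1 h. Anxa4 was lower in old islets, by -0.55 in fresh islets and -0.77 at 11 mM, and Anxa6 was higher, by 1.34 and 1.04 (limma adjusted p = 0.0233, 0.00144, 1.77e-05 and 0.000125). With the mean of probe sets the Anxa6 differences were 0.42 and 0.36 and neither was called (limma adjusted p = 0.0824 and 0.0956). With no array set term they were 1.34 and -0.47, again not called (0.365 and 0.696), and the Anxa4 call in fresh islets was lost (0.102). In fresh islets the Anxa4 call was also lost without any one of the 4 arrays. Anxa2, the partner of S100a10, passed in none of the 5.

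Of 12 galectins, galectin ligands and related genes, 11 were measured. Lgals3bp, a secreted glycoprotein that binds Lgals3, was higher in old islets by 0.96 when fresh and by 1.13 at 11 mM (limma adjusted p = 3.45e-05 and 3.24e-06). With no array set term these differences were 0.96 and 0.48 and neither was called (limma adjusted p = 0.137 and 0.300). At 11 mM Lgals9 was higher by 0.76 and the lysosomal membrane gene Lamp2 lower by -0.43 in old islets (limma adjusted p = 0.0494 and 0.0109). With no array set term neither was called (0.48 and -0.10, limma adjusted p = 0.236 and 0.768), and with the mean of probe sets Lamp2 was at -0.15 (0.456). The Lgals9 call was lost without any one of 5 of the 6 arrays, all but young replicate 3, and that of Lamp2 without old replicate 2 or young replicate 3. None of the 11 passed in the time course. Of 20 other gasdermin and pyroptosis genes, 10 were measured and 1 passed in 1 comparison, about the share of all genes called at 4 h (11.4%): Pycard, the inflammasome adaptor, fell by 0.51 at 4 h (limma adjusted p = 0.0393), a call lost without either 0 h array or without replicate 1 at 4 h. The Pycard call was also lost with no array set term, quantile normalization, no filter or the time-course arrays alone. Gsdmd and Gsdme, the other gasdermins best known to open pores, passed in none of the 5.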

How the data were processed

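Total RNA of islets was measured on Affymetrix mouse arrays after 2 cycles of cDNA synthesis from 50 ng of RNA, per the labels. The authors deposited 1 intensity per probe set and array, made with MAS5 per the submitters' processing notes (version not given in the sources used here). Of 45101 probe sets, 34958 had 1 gene symbol, 932 had several and were not used, and the others had none. Symbols were updated through Entrez identifiers.

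A gene took its brightest probe set, and genes above the array median on at least 2 arrays were kept. Values were log2(intensity + 16), so differences of dim genes are understated. A limma 3.58.1 fit (R 4.3.3, intensity trend) over all 26 arrays held 12 group means and the array set, defined by the Gapdh 5' to 3' ratio at 0.5 because the labels name no batch. Benjamini-Hochberg adjustment ran over 12581 genes, with a threshold of 0.05. "Called" means past it, "apart" that arrays of the same set do not overlap. Precision is limited by the small number of arrays. The steps were tested on simulated data.

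The members, gene lists and tests were chosen with earlier results of these data known. Named were the members, 3 likest genes each for S100a4, S100a6, Lgals3 and Gsdma, up to 4 list genes past the threshold, and as exceptions a few list genes that were not called (S100a13, S100a16, Anxa2, Gsdmd, Gsdme), chosen after their values were seen. Alternatives were other offsets, filters, normalization, probe set choice, no array set term, a replicate block, fewer arrays and leaving out each array. Same-numbered samples deviated together, with r 0.551 to 0.63 over 3 time-course pairs and 0.169 to 0.417 over 6 pairs of cultured young islets. Only the replicate block, an alternative, pairs those samples by number. The main fit holds no such term, so its p-values and intervals are unpaired and include the gap between replicates. Whether the old samples deviated together by number was not checked.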

Additional observations from a re-analysis of the deposited data

How the results depend on the processing

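The members called among fresh islets by age numbered 1; the count was 0 with no array set term, an offset of 64, no filter, the mean of probe sets or no intensity trend, and 2 with the array set and replicate block, quantile normalization or arrays of the same experiment. It was 0 to 0 when 1 array was left out. At 11 mM the count of 1 became 0 with the mean of probe sets and 2 with the replicate block, an offset of 64 or arrays of the same experiment, and was 0 to 1 with 1 array left out. With no array set term the count at 11 mM stayed at 1, but the gene changed. Lgals3 was then called (1.44, limma adjusted p = 0.0415) and Gsdma was not (0.34, limma adjusted p = 0.635). In the time course the block left all 3 counts at 0. The cause was not tested.

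Directions turned in these uncalled differences: at 4 h against 0 h, S100a4 with an offset of 1 (0.00373), S100a6 with quantile normalization (0.030) and Gsdma with the mean of probe sets (0.24); at 4 h against 1 h, S100a10 (-0.017) and Gsdma (0.0041) with that mean; and by age at 11 mM, S100a6 with no array set term (0.16). The called Anxa6 also turned at 11 mM with no array set term (-0.47).

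Leaving out 1 time-course array breaks a replicate pair, so the gap between replicates enters these values. With 1 array left out, the ranges of differences that turned were, at 1 h against 0 h, -0.89 to 1.05 for S100a4, -0.18 to 0.43 for S100a6, -0.39 to 0.84 for S100a10, -0.47 to 0.68 for Lgals1, -0.70 to 0.57 for Lgals3 and -0.27 to 0.42 for Gsdma. At 4 h against 0 h they were -0.998 to 0.94 for S100a4, -0.33 to 0.32 for S100a6, -0.36 to 1.00 for S100a10, -0.63 to 0.26 for Lgals1 and -0.80 to 0.85 for Lgals3. At 4 h against 1 h they were -0.79 to 0.59 for S100a4, -0.45 to 0.20 for S100a6, -0.58 to 0.77 for S100a10, -0.87 to 0.28 for Lgals1, -0.74 to 0.92 for Lgals3 and -0.68 to 0.016 for Gsdma. By age at 11 mM they were -0.36 to 0.16 for S100a6, -0.028 to 0.41 for S100a10 and -0.54 to 0.050 for Lgals1.

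Counts over all genes were 33, 1428 and 389 in the time course (1 h, 4 h, 4 h against 1 h), 1189 by age in fresh islets and 1962 at 11 mM. They were 8, 620, 88, 266 and 869 with no array set term, and 66, 2023, 845, 1963 and 2757 with the replicate block. With the time-course arrays alone they were 0, 687 and 15. Leaving out 1 array gave 0 to 28, 652 to 905, 113 to 234, 419 to 670 and 730 to 1946.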
